A study of Rattus norvegicus with 36 samples.

Results

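Macrophages and other leukocytes of the rat aortic wall were followed through marker genes in total RNA sequencing of the thoracic descending aorta. A list of 38 marker genes, 30 of myeloid cells and 8 of lymphocytes and natural killer (NK) cells, was matched by symbol to a table of 26106 genes. A row was found for 37 of them, 29 myeloid and 8 lymphoid, and Itgam was not analysed here. All rats were male and on the Dahl salt-sensitive (SS) background, a strain whose blood pressure rises on a salty diet. S2Ba and S2Bb are congenic strains in which a piece of SS chromosome 2 is replaced by Brown Norway (BN) sequence, the distal portion in S2Ba and a middle segment in S2Bb. SS rats carry no BN piece. From an age of 4 to 6 weeks to an age of 12 to 13 weeks, rats of each strain ate a high salt diet (HSD, 4% NaCl) or a normal salt diet (NSD, for which the labels give no NaCl content). The libraries numbered 5 for S2Ba HSD, 6 for S2Ba NSD, 6 for S2Bb HSD, 6 for S2Bb NSD, 5 for SS HSD and 6 for SS NSD. In RefSeq's rat annotation Cd53 and Fcgr1a are the members that lie on chromosome 2, and the labels do not give the limits of the BN segments.

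Macrophages live in the outer layer and around the fat of healthy arteries, where they take up debris and dying cells, and monocytes from the blood add to them in hypertension. Many of their surface receptors have no signalling part of their own. They pass the signal through small adaptor proteins, Tyrobp (DAP12) and Fcer1g (the common Fc gamma chain), which carry an activating motif, while Fcgr2b carries an inhibitory one. Tissue macrophages are also a main source of C1q, the starter of the classical complement pathway, and they make superoxide with an oxidase whose catalytic subunit is Cybb. In the rat, monocytes and macrophages carry Cd4 on their surface as helper T cells do, so Cd4 alone does not mark lymphocytes in this species.

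Levels are scaled read counts, that is, reads per gene divided by a size factor of the library. Libraries held between 8753735 and 15168833 reads. The marker genes of smooth muscle, the main cell of the wall, summed to between 20056 and 27308 per library, and the 29 myeloid members summed to between 575 and 1675. Differences were tested with limma on log2(value + 0.5), and p-values were adjusted (Benjamini-Hochberg) over 13475 genes with a mean of at least 0.5. Members count as called below an adjusted p of 0.05. Folds on this scale understate changes of low genes. Of the members 32 passed the filter on the mean, 28 myeloid ones and Cd4, Cd8a, Lck and Cd22. Ccr2, Cd3e, Cd3g, Nkg7 and Cd79b did not pass and were not tested. The RNA comes from whole pieces of aorta, so fewer cells of a type and less RNA per cell cannot be told apart. Each library carries a number of its own, which the labels do not call an animal, so p-values measure the spread between these libraries.

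The summed myeloid level was 1016.5, 729, 1675, 971 and 743 in the S2Ba HSD libraries, against 593 to 932 in the S2Ba NSD libraries (median 725). S2Bb HSD libraries had 658 to 1640 (median 944), against 649.6 to 792 in S2Bb NSD libraries (median 761). SS HSD libraries had 814, 575, 677, 933 and 681, against 673 to 787 in SS NSD libraries (median 758). A pair of high salt libraries stood apart, S2Ba HSD replicate 4 at 1675 and S2Bb HSD replicate 1 at 1640, while the next highest library had 1016.5. S2Ba HSD replicate 4 had the highest value of all 34 libraries for 18 of the 28 tested myeloid members, and S2Bb HSD replicate 1 for 7. Its own group's highest value lay in S2Ba HSD replicate 4 for 27 members and in S2Bb HSD replicate 1 for 21. Their depths, 11733501 and 12542912 reads, were within the range of the other libraries. The adipocyte markers summed to 375 and 213 in them, the endothelial markers to 587 and 487, and the erythroid markers to 336 and 118. S2Ba HSD replicate 4 was the highest of its group for adipocyte (73.8 to 375) and endothelial markers (329 to 587). S2Bb HSD replicate 1 was the highest of its group for erythroid markers (21.1 to 118). The remaining sums given here lay inside the ranges of their groups. Group medians of the myeloid sum were above the matching NSD median in both congenic strains and below it in SS, and HSD and NSD libraries overlapped in each strain. Calls and medians that rest on these libraries are given with and without them.

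**Figure D1:**
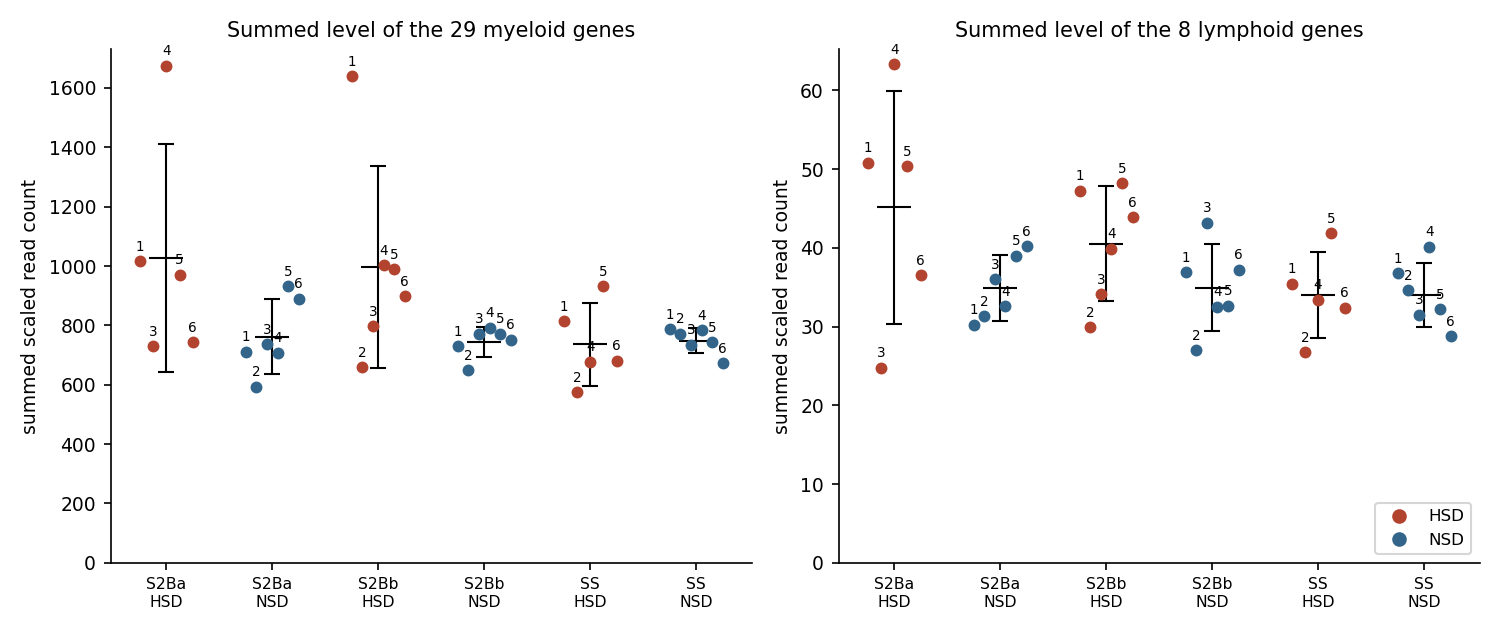
Summed scaled read count of the 29 myeloid members (left) and the 8 lymphoid members (right) in each library, by group. Most of the lymphoid sum is Cd4, with a mean of 33.1 over all libraries, and rat macrophages carry Cd4 too. Points are libraries with their replicate number, red for HSD and blue for NSD, and bars are the group mean ± SD. S2Ba HSD replicate 4 (1675) and S2Bb HSD replicate 1 (1640) lie above all other libraries in the left panel.

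On high salt a part of the myeloid members was higher in the congenic strains and 1 was lower in SS. In S2Ba 3 of the 32 tested members rose on HSD (C1qa, C1qb and Cybb) and none fell, a share of 9.38% beside 15.2% of all tested genes that were called in that comparison. In S2Bb 5 rose (Fcgr2b, Fcer1g, C1qb, Cd86 and Tyrobp) and none fell, 15.6% beside 22.1% of all genes. In SS 1 fell (Cd14) and none rose, 3.125% beside 8.38% of all genes. Averaged over the 3 strains, 10 rose and none fell: C1qb, Tyrobp, Fcer1g, Cybb, Aif1, Fcgr2b, Ncf1, C1qa, C1qc and Cd68. That is 31.25% of the tested members, beside 38.9% of all tested genes. In each of these comparisons the share of members called by the main limma fit was below the share of all genes called. In S2Bb the order was reversed in other fits, taken over the 28 tested myeloid members. There edgeR called 32.1% of them beside 22.6% of all genes, and DESeq2 39.3% beside 24.6%. With the adipocyte marker level as a covariate limma called 32.1% beside 23.1%. Averaged over strains DESeq2 called 42.9% of them beside 41.05% of all genes.

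Most myeloid members had a fold change above 0 in the congenic strains. Over the 28 tested myeloid members the median log2 fold change, HSD over NSD, was 0.35 in S2Ba, 0.29 in S2Bb and -0.08 in SS, beside medians of -0.01, -0.00 and -0.02 over all tested genes. Fold changes were above 0 for 28 of 28 myeloid members in S2Ba, 26 of 28 in S2Bb and 10 of 28 in SS. Without S2Ba HSD replicate 4 the S2Ba median was 0.21, with 24 of 28 above 0. No member was then called by limma, beside 11.6% of all genes, and 3 of 28 (10.7%) had an unadjusted p under 0.05, beside 27% of all genes. Without S2Bb HSD replicate 1 the S2Bb median was 0.24, with 23 of 28 above 0 and 1 of 28 called (3.57%, beside 17.9% of all genes). Averaged over strains the median was 0.22, and without both libraries, an alternative chosen after seeing the data, it was 0.11 with 8 of 28 called (28.6%, beside 35.7% of all genes). These medians describe genes that share libraries and cells, and they carry no test.

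**Figure D2:**
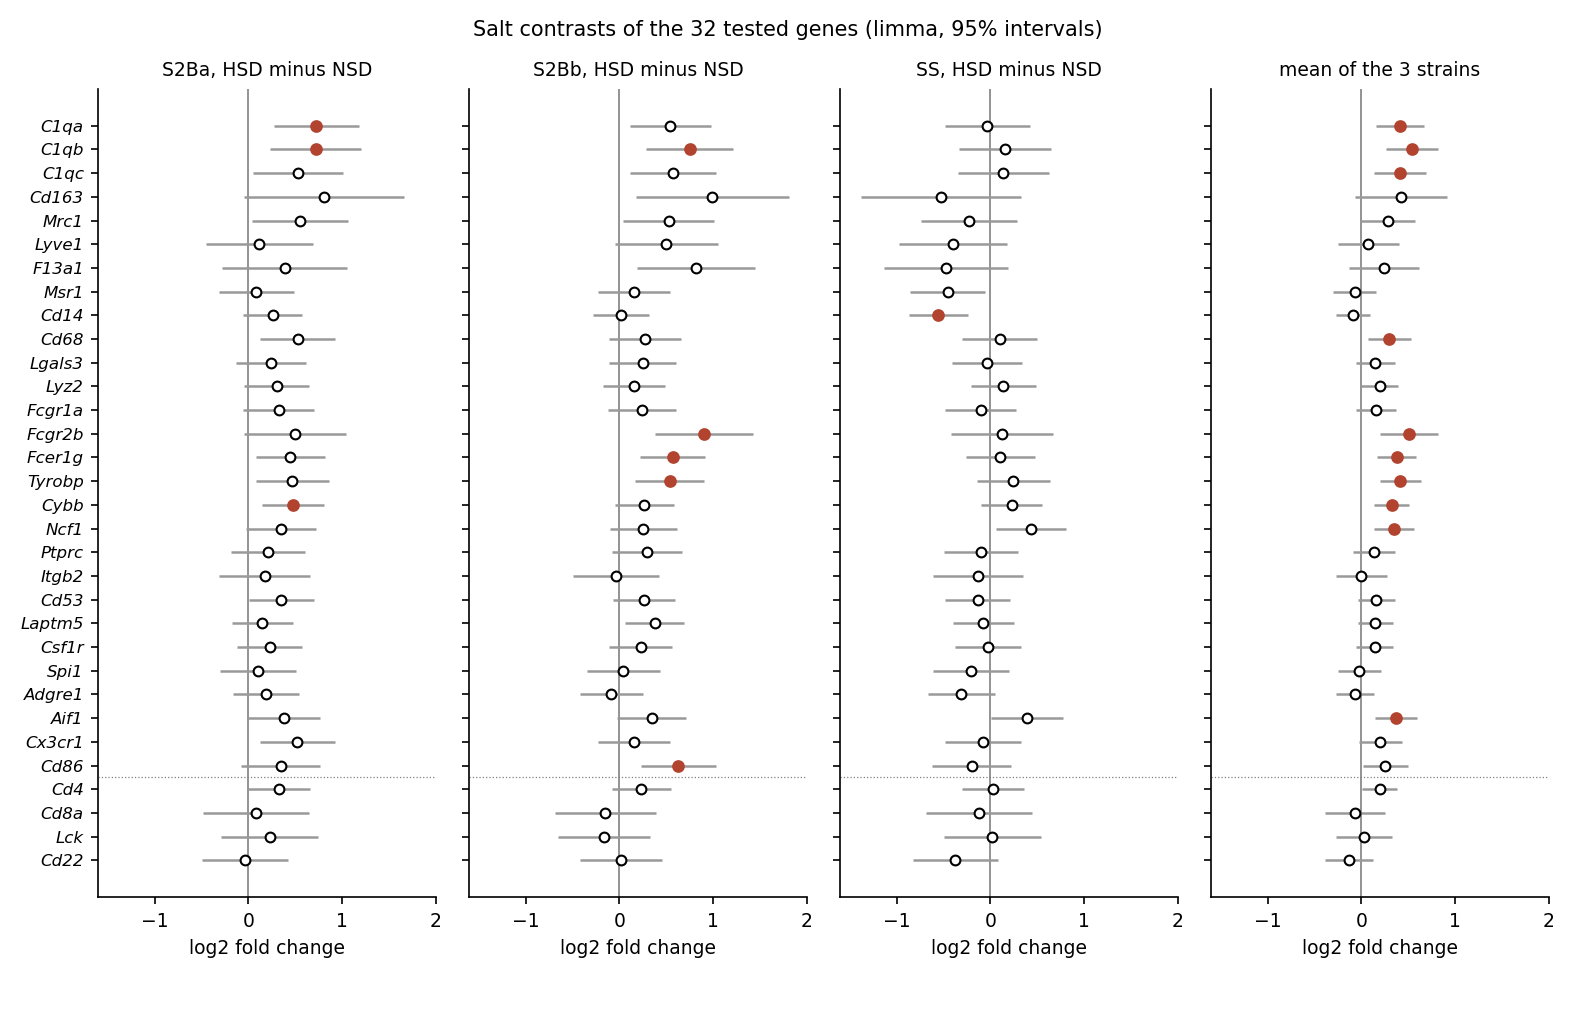
Log2 fold change, HSD over NSD, of the 32 tested members in each strain and averaged over the strains, with 95% intervals from limma. Filled red points are called at an adjusted p under 0.05, and the dotted line parts the 28 myeloid members (above) from the 4 lymphoid ones. Of the S2Ba points, 31 lie to the right of 0, against 12 of the SS points.

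C1qa, C1qb and C1qc code for the 3 chains of complement C1q. C1qa and C1qb rose in S2Ba, C1qb also rose in S2Bb, and all 3 rose in the average over strains. C1qa was at 63.8, 34.1, 93.8, 42.6 and 35.04 in the S2Ba HSD libraries, against 21.1 to 44.2 in the S2Ba NSD libraries (median 28.03). The S2Ba groups overlapped, with S2Ba HSD replicates 1 and 4 above every S2Ba NSD library. The log2 fold change of C1qa was 0.72 ± 0.22 (SE; adjusted p = 0.0244) in S2Ba, 0.55 ± 0.21 (SE; adjusted p = 0.0616) in S2Bb and -0.03 ± 0.22 (SE; adjusted p = 0.948) in SS. C1qb was at 39.6, 30.4, 76.8, 32.2 and 27.1 in the S2Ba HSD libraries, against 16.01 to 33.96 in the S2Ba NSD libraries (median 20.6), a log2 fold change of 0.72 ± 0.24 (SE; adjusted p = 0.0388). In S2Bb it was at 22.2 to 79.6 in the S2Bb HSD libraries (median 33.1), against 16.3 to 23.9 in the S2Bb NSD libraries (median 22.6), a change of 0.75 ± 0.23 (SE; adjusted p = 0.016). Of the S2Bb HSD libraries 5 were above every NSD library, with replicate 1 at 79.6 and replicate 2 at 22.2. In SS C1qb was at 28.9, 19.1, 26.3, 34.2 and 25.1 in the SS HSD libraries, against 19.5 to 28.9 in the SS NSD libraries (median 23.01), and its change of 0.16 ± 0.24 (SE; adjusted p = 0.717) did not pass. C1qc passed only in the average over strains, with 0.41 ± 0.14 (SE; adjusted p = 0.0149), beside 0.41 ± 0.13 (SE; adjusted p = 0.00971) for C1qa and 0.54 ± 0.14 (SE; adjusted p = 0.00195) for C1qb. Without S2Ba HSD replicate 4 the S2Ba changes were 0.50 (adjusted p = 0.12) for C1qa and 0.47 (adjusted p = 0.176) for C1qb, and over all alternatives their adjusted p ran from 0.00608 to 0.12 and from 0.0158 to 0.176. The C1qa call in S2Ba was also lost without S2Ba HSD replicate 1 or S2Ba NSD replicates 2 or 3, and the C1qb call without S2Ba HSD replicate 1 or S2Ba NSD replicates 1, 2, 3 or 4. Without S2Bb HSD replicate 1 the C1qb change in S2Bb was 0.53 (adjusted p = 0.0719), in a range of adjusted p from 0.00236 to 0.287, and C1qc averaged over strains was 0.29 (adjusted p = 0.0544) without both libraries, in a range from 0.00318 to 0.201.

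The letters upstream of these genes are shown because levels of the C1q genes moved together across libraries. PU.1, coded by Spi1, is the factor that sets the macrophage programme, and it binds sites built around GAGGAA, of which GAGGAAGT is a longer form that contains it. In the RefSeq promoters of GRCr8 (250 bases before the start, both strands searched) 26 of the 38 members had an entry, 20 myeloid and 6 lymphoid, Itgam included. GAGGAA occurred in 14 of the 20 myeloid promoters (70%), in 2 of the 7 lymphoid ones (28.6%; Lck has 2 entries) and in 23.3% of all 33469 promoters. GAGGAAGT occurred in 1 myeloid promoter, that of Cd53 (5%), in none of the lymphoid ones and in 2.04% of all. A match is a string of letters and no evidence of binding, and the share was not tested. C1qb and Cybb hold GAGGAA or its reverse complement TTCCTC, marked in capitals, and C1qa holds neither, although C1qa and C1qb were called together in S2Ba.
C1qa promoter (GRCr8 chr5:154419934-154420183, minus strand): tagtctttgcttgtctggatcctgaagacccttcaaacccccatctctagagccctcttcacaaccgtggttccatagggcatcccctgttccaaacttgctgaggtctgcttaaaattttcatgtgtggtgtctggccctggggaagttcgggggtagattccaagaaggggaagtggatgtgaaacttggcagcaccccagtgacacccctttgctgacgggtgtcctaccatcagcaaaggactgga
C1qb promoter (GRCr8 chr5:154407828-154408077, minus strand): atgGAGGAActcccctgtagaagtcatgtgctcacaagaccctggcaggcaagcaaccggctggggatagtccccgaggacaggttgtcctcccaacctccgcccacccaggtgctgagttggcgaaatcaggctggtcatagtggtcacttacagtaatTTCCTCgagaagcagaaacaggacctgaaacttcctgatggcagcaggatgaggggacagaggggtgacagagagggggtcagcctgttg
Cybb promoter (GRCr8 chrX:16065066-16065315, minus strand): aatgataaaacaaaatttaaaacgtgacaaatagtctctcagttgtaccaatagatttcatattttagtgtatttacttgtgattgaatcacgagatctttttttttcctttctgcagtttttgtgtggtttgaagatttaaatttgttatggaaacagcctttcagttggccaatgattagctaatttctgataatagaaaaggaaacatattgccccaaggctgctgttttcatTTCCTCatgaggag
Cd14 promoter (GRCr8 chr18:28611159-28611408, minus strand): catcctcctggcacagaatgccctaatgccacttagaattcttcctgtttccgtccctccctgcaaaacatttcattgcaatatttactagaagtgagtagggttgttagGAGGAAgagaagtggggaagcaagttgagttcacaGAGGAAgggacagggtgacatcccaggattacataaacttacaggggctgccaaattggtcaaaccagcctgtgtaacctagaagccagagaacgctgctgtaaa
The Cd14 promoter is shown beside them because Cd14 fell in SS, where no other member was called. It holds GAGGAA at 2 places.

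The adaptors of activating receptors rose in S2Bb and in the average over strains. Fcer1g was at 7.05 to 14.5 in the S2Bb HSD libraries (median 10.1), against 5.23 to 8.28 in the S2Bb NSD libraries (median 6.72). Of the S2Bb HSD libraries 5 were above every S2Bb NSD library, and replicate 2 at 7.05 was inside the NSD range. Its log2 fold change was 0.57 ± 0.17 (SE; adjusted p = 0.0142) in S2Bb, 0.45 ± 0.18 (SE; adjusted p = 0.0856) in S2Ba and 0.11 ± 0.18 (SE; adjusted p = 0.743) in SS. Tyrobp was at 8.401 to 19.4 in the S2Bb HSD libraries (median 14.2), against 7.32 to 10.8 in the S2Bb NSD libraries (median 9.66), and again replicate 2 was the one HSD library inside the NSD range. The change of Tyrobp was 0.54 ± 0.18 (SE; adjusted p = 0.0315) in S2Bb, 0.47 ± 0.19 (SE; adjusted p = 0.0924) in S2Ba and 0.25 ± 0.19 (SE; adjusted p = 0.442) in SS. Averaged over strains Tyrobp rose by 0.42 ± 0.11 (SE; adjusted p = 0.00274) and Fcer1g by 0.38 ± 0.10 (SE; adjusted p = 0.00377). The averaged Tyrobp call held under every alternative that was run, with an adjusted p of 0.000387 to 0.0325. The S2Bb calls were lost without S2Bb HSD replicate 1, at 0.47 (adjusted p = 0.0531) for Fcer1g and 0.44 (adjusted p = 0.0999) for Tyrobp, and over all alternatives the adjusted p ran from 0.00456 to 0.211 and from 0.00647 to 0.215. The Tyrobp call in S2Bb was also lost without S2Bb HSD replicates 3 or 4 or S2Bb NSD replicates 2 or 3.

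Fcgr2b, the inhibitory receptor for immunoglobulin G, rose in S2Bb and in the average over strains. It was at 3.704 to 8.48 in the S2Bb HSD libraries (median 5.75), against 2.499 to 3.36 in the S2Bb NSD libraries (median 2.87), and in S2Bb the groups did not overlap. How many of all genes had S2Bb groups without overlap was not counted. The log2 fold change of Fcgr2b was 0.90 ± 0.26 (SE; adjusted p = 0.00984) in S2Bb, and the call held under every alternative run, with an adjusted p of 0.00226 to 0.045. In S2Ba it was at 4.301, 2.75, 8.41, 7.51 and 5.39 in the S2Ba HSD libraries, against 2.43 to 4.92 in the S2Ba NSD libraries (median 3.79), a change of 0.49 ± 0.27 (SE; adjusted p = 0.215) with overlapping groups. In SS it was at 4.57, 2.13, 3.02, 9.33 and 3.24 in the SS HSD libraries, against 2.12 to 6.13 in the SS NSD libraries (median 3.498), a change of 0.12 ± 0.27 (SE; adjusted p = 0.811), where replicate 5 at 9.33 was the highest value of all libraries. Averaged over strains it rose by 0.51 ± 0.15 (SE; adjusted p = 0.00855), a call also held under every alternative (adjusted p 0.000885 to 0.0421). Fcgr1a, the high-affinity activating receptor, had log2 fold changes of 0.32 in S2Ba, 0.24 in S2Bb and -0.10 in SS, none called. Fcgr2b has close relatives in the Fc receptor family, and how reads shared between them were counted is not given in the sources used here.

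Both oxidase genes rose in the average over strains. Cybb, its catalytic subunit, was at 78.3, 49.3, 117, 73.00 and 50.9 in the S2Ba HSD libraries, against 37.3 to 62.1 in the S2Ba NSD libraries (median 52.2). S2Ba HSD replicates 1, 4 and 5 were above every S2Ba NSD library and replicates 3 and 6 were inside their range, with a log2 fold change of 0.47 ± 0.16 (SE; adjusted p = 0.0426). The change of Cybb was 0.27 ± 0.15 (SE; adjusted p = 0.222) in S2Bb and 0.23 ± 0.16 (SE; adjusted p = 0.392) in SS. Ncf1, the organiser of the cytosolic part of the oxidase, had log2 fold changes of 0.35, 0.26 and 0.43 in S2Ba, S2Bb and SS with no call. Averaged over strains Cybb rose by 0.32 ± 0.09 (SE; adjusted p = 0.00563) and Ncf1 by 0.35 ± 0.11 (SE; adjusted p = 0.00947). In SS, Ncf1 and Aif1 had the highest fold changes among the tested myeloid members, at 0.43 and 0.39, each with an unadjusted p under 0.05. Without S2Ba HSD replicate 4 the fold change of Cybb was 0.29 (adjusted p = 0.2) in S2Ba, and the call was also lost without S2Ba HSD replicates 1 or 5 or S2Ba NSD replicates 1, 2 or 4, with adjusted p from 0.0141 to 0.2 over all alternatives.

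The same genes in the strains not yet given, and C1qc, Aif1 and Ncf1, had these levels. C1qa was at 30.3 to 69.96 in the S2Bb HSD libraries (median 42.5), against 20.5 to 34.1 in the S2Bb NSD libraries (median 32.1), and in SS at 33.5, 22.9, 28.5, 41.2 and 26 in the SS HSD libraries, against 24.3 to 39.6 in the SS NSD libraries (median 29.8). C1qc was at 63.5, 35.6, 99.9, 52.1 and 39.2 in the S2Ba HSD libraries, against 24.5 to 59.02 in the S2Ba NSD libraries (median 33.8). For C1qc in S2Bb the level was 30.7 to 87.4 in the S2Bb HSD libraries (median 48.3), against 24.2 to 38.7 in the S2Bb NSD libraries (median 34.3), and in SS 42.1, 28.2, 38.7, 56.3 and 34.2 in the SS HSD libraries, against 28.5 to 43.1 in the SS NSD libraries (median 34.8). HSD and NSD libraries of each strain overlapped for C1qa and C1qc, with S2Ba HSD replicate 4 and S2Bb HSD replicate 1 the highest of their groups.

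Fcer1g was at 9.09, 5.59, 14.1, 8.296 and 7.41 in the S2Ba HSD libraries, against 3.79 to 7.18 in the S2Ba NSD libraries (median 6.44), and in SS at 7.24, 5.77, 6.12, 9.08 and 6.39 in the SS HSD libraries, against 4.901 to 7.21 in the SS NSD libraries (median 6.59). Tyrobp was at 18.9, 10.6, 20.4, 14.7 and 11.1 in the S2Ba HSD libraries, against 7.47 to 14.7 in the S2Ba NSD libraries (median 10.9), and in SS at 12.8, 8.28, 8.899, 14.9 and 9.46 in the SS HSD libraries, against 7.502 to 12.4 in the SS NSD libraries (median 8.497). Cybb was at 49.1 to 87.8 in the S2Bb HSD libraries (median 63.6), against 45.01 to 59.4 in the S2Bb NSD libraries (median 56.2), and in SS at 58.6, 45.6, 54.5, 65.97 and 55.9 in the SS HSD libraries, against 43.7 to 52.2 in the SS NSD libraries (median 47.3). HSD and NSD libraries overlapped in each of these strains. Ncf1 was at 10.7, 5.67, 13.3, 8.65 and 7.67 in the S2Ba HSD libraries, against 4.29 to 9.93 in the S2Ba NSD libraries (median 7.48). For Ncf1 in S2Bb the level was 6.14 to 10.54 in the S2Bb HSD libraries (median 8.21), against 5.33 to 7.49 in the S2Bb NSD libraries (median 6.93), and in SS 9.37, 7.52, 7.18, 8.92 and 7.84 in the SS HSD libraries, against 5.001 to 7.36 in the SS NSD libraries (median 5.89). These groups overlapped too. Cd86 was at 2.52, 1.21, 3.83, 1.48 and 1.600 in the S2Ba HSD libraries, against 0.994 to 2.199 in the S2Ba NSD libraries (median 1.51), and in SS at 1.02, 0.759, 1.55, 1.57 and 0.682 in the SS HSD libraries, against 0.977 to 1.56 in the SS NSD libraries (median 1.34), with overlap. Aif1 was at 19.2, 15.1, 24.3, 22.6 and 13.6 in the S2Ba HSD libraries, against 10.4 to 22.6 in the S2Ba NSD libraries (median 12.8). For Aif1 in S2Bb the level was 12.4 to 18.5 in the S2Bb HSD libraries (median 17.8), against 7.76 to 14.99 in the S2Bb NSD libraries (median 14.2), and in SS 15.8, 11.5, 13.6, 19.2 and 15.4 in the SS HSD libraries, against 8.602 to 13.8 in the SS NSD libraries (median 11.7), and the groups overlapped in each strain.

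**Figure D3:**
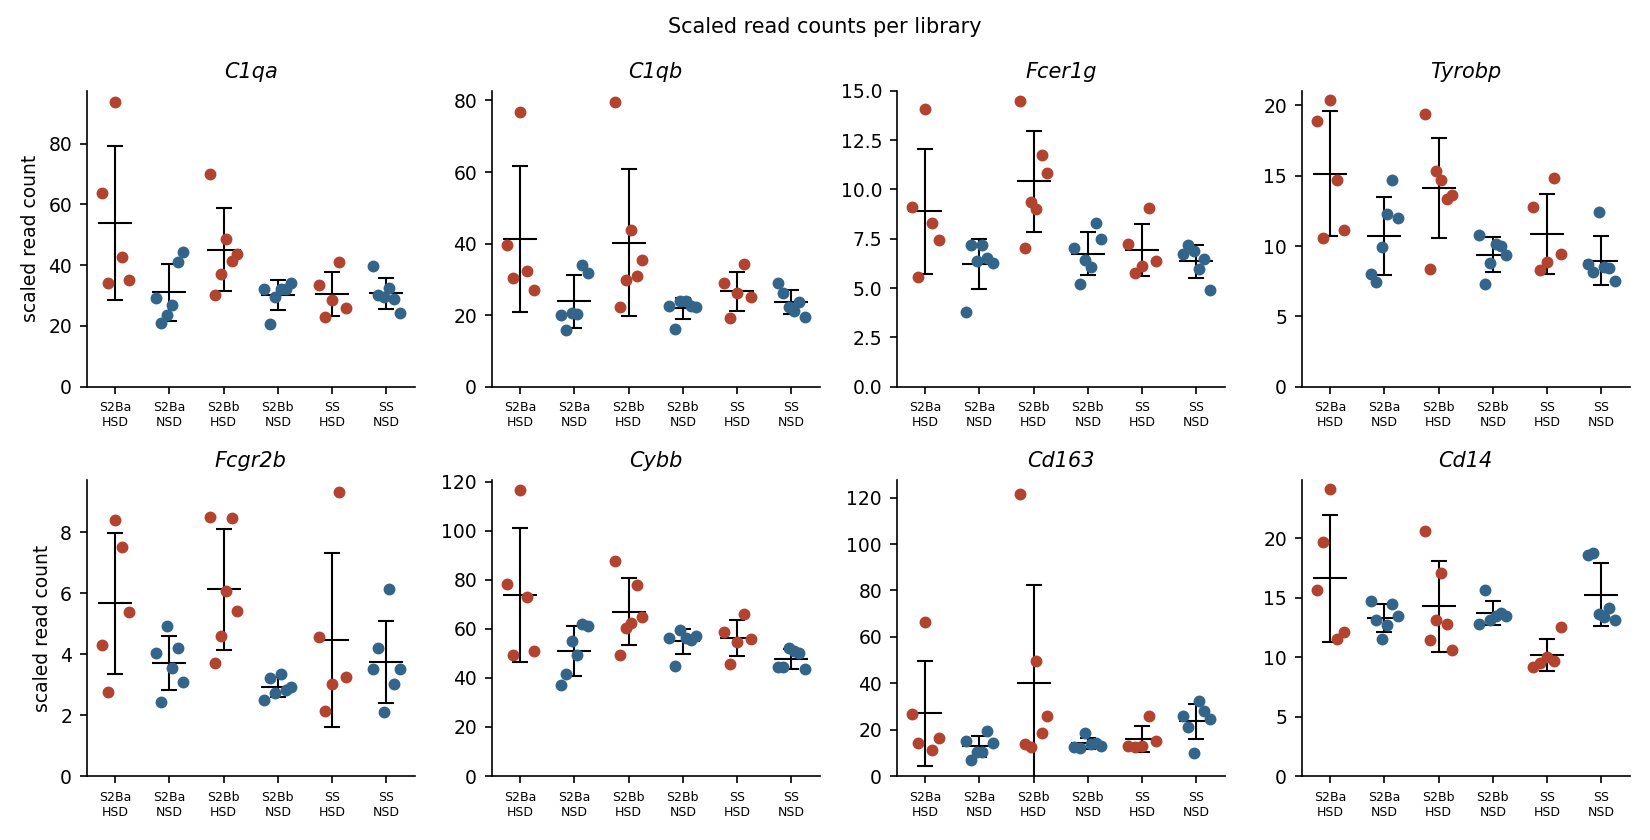
Scaled read count of C1qa, C1qb, Fcer1g, Tyrobp, Fcgr2b, Cybb, Cd163 and Cd14 in each library, by group. Points are libraries (red HSD, blue NSD) and bars are the group mean ± SD, clipped at 0 where they would go below it. For Fcgr2b the S2Bb HSD points (3.70 to 8.49) lie above all S2Bb NSD points (2.499 to 3.36), and for Cd14 the SS HSD points (9.21 to 12.5) lie below all SS NSD points (13.1 to 18.7).

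Cd14, the coreceptor for bacterial lipopolysaccharide, was the member that fell in SS. It was at 9.21, 9.49, 10.04, 9.66 and 12.5 in the SS HSD libraries, against 13.1 to 18.7 in the SS NSD libraries (median 13.9), and the groups did not overlap. How many of all genes had SS groups without overlap was not counted. The log2 fold change of Cd14 was -0.55 ± 0.15 (SE; adjusted p = 0.0244). In S2Ba it was at 15.7, 19.7, 24.2, 11.5 and 12.1 in the S2Ba HSD libraries, against 11.5 to 14.7 in the S2Ba NSD libraries (median 13.3), a change of 0.26 ± 0.15 (SE; adjusted p = 0.262). Among S2Bb libraries it was at 10.6 to 20.6 in the S2Bb HSD libraries (median 12.95), against 12.8 to 15.7 in the S2Bb NSD libraries (median 13.5), a change of 0.02 ± 0.15 (SE; adjusted p = 0.934). HSD and NSD libraries of both congenic strains overlapped. The SS call was lost without SS HSD replicates 2, 4 or 5 or SS NSD replicates 1 or 2, where the change ran from -0.55 to -0.49, and over all alternatives the adjusted p ran from 0.00681 to 0.0923.

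Cd163, Mrc1, Lyve1, F13a1 and Msr1, surface receptors and a coagulation factor of tissue macrophages, were not called in any strain. Cd163, the receptor for haemoglobin bound to haptoglobin, was at 12.4 to 122 in the S2Bb HSD libraries (median 22.2), against 12.2 to 18.6 in the S2Bb NSD libraries (median 13.5). S2Bb HSD replicates 1 and 4, at 122 and 49.6, were well above the others. In S2Ba Cd163 was at 26.6, 14.4, 66.4, 11.1 and 16.5 in the S2Ba HSD libraries, against 6.79 to 19.3 in the S2Ba NSD libraries (median 12.4), and in SS at 13.2, 12.5, 12.8, 25.9 and 15.3 in the SS HSD libraries, against 9.997 to 32.2 in the SS NSD libraries (median 25.2). Groups overlapped in each strain, and the changes of 0.81 ± 0.42 (SE; adjusted p = 0.193) in S2Ba, 0.99 ± 0.40 (SE; adjusted p = 0.0722) in S2Bb and -0.53 ± 0.42 (SE; adjusted p = 0.451) in SS did not pass. Without S2Bb HSD replicate 1 the S2Bb change of Cd163 was 0.57 (adjusted p = 0.275), and without S2Ba HSD replicate 4 the S2Ba change was 0.41 (adjusted p = 0.548).

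Mrc1, the mannose receptor, was at 106, 62.9, 199, 86.6 and 73.6 in the S2Ba HSD libraries, against 48.8 to 101 in the S2Ba NSD libraries (median 60.8). In S2Bb Mrc1 was at 64.7 to 227 in the S2Bb HSD libraries (median 95.6), against 55.98 to 79.6 in the S2Bb NSD libraries (median 72.1), and in SS at 77.1, 45.2, 67.8, 97.8 and 65.1 in the SS HSD libraries, against 68.7 to 100.4 in the SS NSD libraries (median 79.1). S2Ba HSD replicate 4 and S2Bb HSD replicate 1 were the highest libraries, at 199 and 227, and the groups overlapped in each strain. The log2 fold changes of Mrc1 were 0.55 ± 0.25 (SE; adjusted p = 0.138), 0.53 ± 0.24 (SE; adjusted p = 0.114) and -0.23 ± 0.25 (SE; adjusted p = 0.598) in S2Ba, S2Bb and SS. Lyve1, a hyaluronan receptor of vessel-wall macrophages and lymphatic endothelium, was at 19.6, 14.01, 51.6, 14.8 and 14.6 in the S2Ba HSD libraries, against 14.6 to 26.6 in the S2Ba NSD libraries (median 17.7). For S2Bb it was at 14.3 to 48.7 in the S2Bb HSD libraries (median 25.2), against 14.5 to 20.9 in the S2Bb NSD libraries (median 17.9), and in SS at 14.9, 12.00, 14.5, 27.7 and 14.6 in the SS HSD libraries, against 13.4 to 26.1 in the SS NSD libraries (median 22.9). Its changes were 0.12 ± 0.28 (SE; adjusted p = 0.823), 0.50 ± 0.27 (SE; adjusted p = 0.183) and -0.40 ± 0.28 (SE; adjusted p = 0.392), and without S2Ba HSD replicate 4 the S2Ba change turned to -0.22 (adjusted p = 0.614). F13a1, the macrophage form of coagulation factor XIII subunit A, had log2 fold changes of 0.39, 0.82 and -0.48, and Msr1, a scavenger receptor for modified lipoprotein, of 0.09, 0.16 and -0.46, none called. With all libraries in the fit, Cd163, Mrc1, Lyve1, F13a1 and Msr1 all had a fold change above 0 in both congenic strains and below 0 in SS. For Lyve1 and Msr1 in S2Ba the sign did not hold without S2Ba HSD replicate 4, where 4 of the 28 tested myeloid members were below 0. F13a1 was highest of all libraries in S2Bb HSD replicate 1 (107) and Msr1 in S2Ba HSD replicate 4 (20.4).

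**Figure D4:**
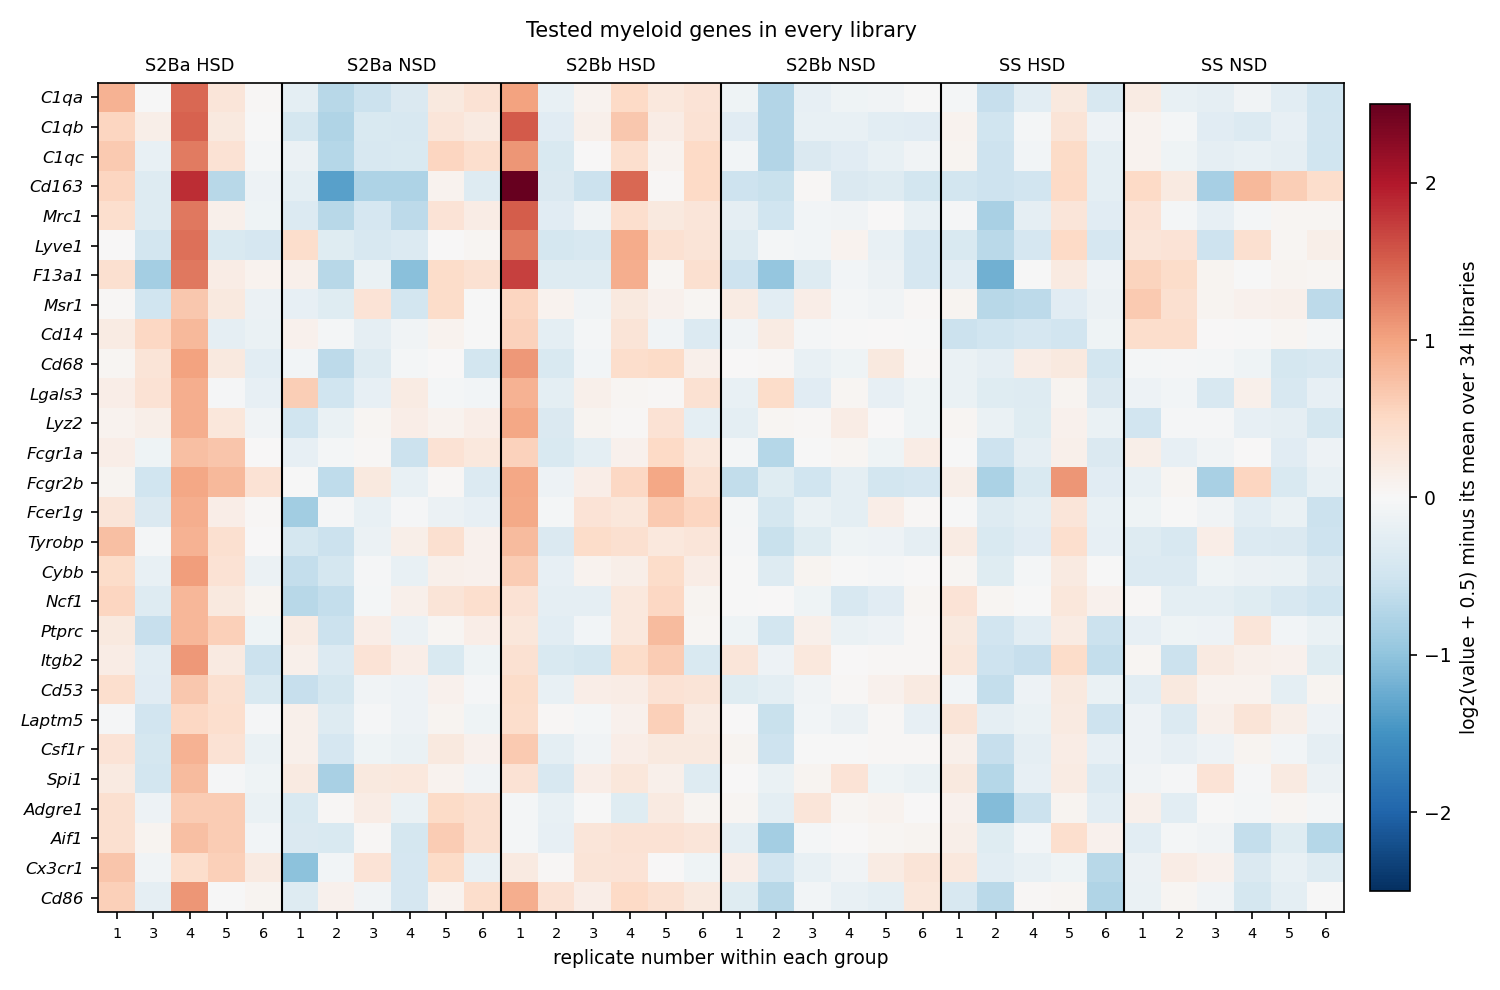
Log2(value + 0.5) of the 28 tested myeloid members in each of the 34 libraries, as the difference from the gene's mean over all libraries, with groups side by side and replicate numbers below. Columns of S2Ba HSD replicate 4 and S2Bb HSD replicate 1 are red for nearly all genes, and Cd163 in S2Bb HSD replicate 1 (122) is the most intense cell.

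Of the genes that define the macrophage lineage, Csf1r, Spi1 and Adgre1 were not called in any salt comparison. Csf1r, the receptor for the macrophage growth factor, was at 122, 71.4, 178, 124 and 86.1 in the S2Ba HSD libraries, against 72.4 to 114 in the S2Ba NSD libraries (median 97.1). In S2Bb it was at 80.9 to 153 in the S2Bb HSD libraries (median 111), against 66.8 to 102 in the S2Bb NSD libraries (median 97.6), and in SS at 106, 64.7, 82.95, 109.8 and 83.5 in the SS HSD libraries, against 82.1 to 101 in the SS NSD libraries (median 88.5). Groups overlapped in each strain, and the log2 fold changes were 0.23 ± 0.17 (SE; adjusted p = 0.388), 0.23 ± 0.16 (SE; adjusted p = 0.339) and -0.02 ± 0.17 (SE; adjusted p = 0.949) in S2Ba, S2Bb and SS. Spi1, which codes for PU.1, was at 6.25, 3.72, 9.49, 5.15 and 4.89 in the S2Ba HSD libraries, against 2.81 to 6.41 in the S2Ba NSD libraries (median 5.94). In S2Bb it was at 3.88 to 6.904 in the S2Bb HSD libraries (median 5.900), against 4.63 to 6.78 in the S2Bb NSD libraries (median 5.098), and in SS at 6.38, 3.04, 4.49, 6.19 and 4.09 in the SS HSD libraries, against 4.701 to 6.86 in the SS NSD libraries (median 5.16), again with overlap. Its changes were 0.10 ± 0.20 (SE; adjusted p = 0.79), 0.04 ± 0.19 (SE; adjusted p = 0.897) and -0.21 ± 0.20 (SE; adjusted p = 0.547). Adgre1, the F4/80 antigen, was at 33.2, 22.7, 39.2, 38.9 and 22.2 in the S2Ba HSD libraries, against 18.9 to 34.98 in the S2Ba NSD libraries (median 26.8). In S2Bb Adgre1 was at 20.2 to 29.3 in the S2Bb HSD libraries (median 24.3), against 20.98 to 30.9 in the S2Bb NSD libraries (median 25.8), and in SS at 27.1, 11.5, 17.1, 26.01 and 20.7 in the SS HSD libraries, against 20.7 to 27.4 in the SS NSD libraries (median 24.4). None of its changes, 0.19 ± 0.17 (SE; adjusted p = 0.501), -0.09 ± 0.17 (SE; adjusted p = 0.756) and -0.31 ± 0.17 (SE; adjusted p = 0.272), passed.

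Cd68, a lysosomal glycoprotein used to stain macrophages, was at 6.57, 8.096, 13.3, 7.597 and 5.22 in the S2Ba HSD libraries, against 3.88 to 6.42 in the S2Ba NSD libraries (median 5.53). In S2Bb Cd68 was at 4.79 to 14.1 in the S2Bb HSD libraries (median 7.93), against 5.52 to 7.61 in the S2Bb NSD libraries (median 6.51), and in SS at 5.67, 5.39, 7.35, 7.596 and 4.52 in the SS HSD libraries, against 4.55 to 6.24 in the SS NSD libraries (median 5.996). Groups overlapped in each strain, and the changes were 0.53 ± 0.20 (SE; adjusted p = 0.0672), 0.28 ± 0.19 (SE; adjusted p = 0.307) and 0.10 ± 0.20 (SE; adjusted p = 0.792). Cd68 passed only in the average over strains, with 0.30 ± 0.11 (SE; adjusted p = 0.0326). Its averaged call was lost without S2Ba HSD replicate 4, S2Bb HSD replicate 1, S2Ba NSD replicate 2, SS HSD replicates 4 or 5, or SS NSD replicate 5, where the change ran down to 0.24, and over all alternatives its adjusted p ran from 0.00866 to 0.394. Aif1 (Iba1), an actin-binding protein of macrophages, rose on average by 0.37 ± 0.11 (SE; adjusted p = 0.00687) with similar changes of 0.38, 0.34 and 0.39 in S2Ba, S2Bb and SS. Lyz2, a lysozyme with a mean of 176, had log2 fold changes of 0.30, 0.15 and 0.14, and Lgals3, a galectin, of 0.24, 0.25 and -0.04, none called.

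Pan-leukocyte genes were not called in any comparison. Ptprc (CD45), the phosphatase on all leukocytes, was at 34.8, 19.4, 52.2, 44.2 and 26.95 in the S2Ba HSD libraries, against 19.99 to 33.8 in the S2Ba NSD libraries (median 31.5). In S2Bb it was at 24.3 to 50.5 in the S2Bb HSD libraries (median 32.7), against 21.2 to 31.99 in the S2Bb NSD libraries (median 26.8), and in SS at 34.6, 20.9, 24.2, 33.7 and 19.9 in the SS HSD libraries, against 25.3 to 36.1 in the SS NSD libraries (median 26.9). Groups overlapped in each strain, and the log2 fold changes were 0.21 ± 0.19 (SE; adjusted p = 0.489), 0.29 ± 0.18 (SE; adjusted p = 0.267) and -0.10 ± 0.19 (SE; adjusted p = 0.78) in S2Ba, S2Bb and SS. Itgb2, the beta-2 integrin chain for adhesion of leukocytes to endothelium, was at 11.4, 8.18, 21.7, 11.8 and 6.74 in the S2Ba HSD libraries, against 7.53 to 12.8 in the S2Ba NSD libraries (median 10.1). In S2Bb Itgb2 was at 7.23 to 15.9 in the S2Bb HSD libraries (median 10.4), against 9.11 to 12.4 in the S2Bb NSD libraries (median 10.1), and in SS at 12.2, 6.83, 6.53, 13.9 and 6.48 in the SS HSD libraries, against 6.73 to 11.7 in the SS NSD libraries (median 10.6), with overlap and with changes of 0.17 ± 0.24 (SE; adjusted p = 0.672), -0.03 ± 0.23 (SE; adjusted p = 0.932) and -0.13 ± 0.24 (SE; adjusted p = 0.767). Cd53 and Laptm5, membrane proteins of leukocytes, had log2 fold changes of 0.35 and 0.15 in S2Ba, 0.26 and 0.38 in S2Bb, and -0.14 and -0.08 in SS.

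Among the genes of recruitment and activation, Cd86 passed in S2Bb. Cd86, a costimulatory ligand for T cells, was at 1.76 to 3.24 in the S2Bb HSD libraries (median 2.08), against 0.746 to 1.93 in the S2Bb NSD libraries (median 1.22), and S2Bb HSD replicates 3 and 6 were inside the range of the S2Bb NSD libraries. Its change was 0.63 ± 0.20 (SE; adjusted p = 0.0192) in S2Bb, 0.34 ± 0.21 (SE; adjusted p = 0.269) in S2Ba and -0.20 ± 0.21 (SE; adjusted p = 0.578) in SS. Without S2Bb HSD replicate 1 the S2Bb change was 0.53 (adjusted p = 0.0643), the call was also lost without S2Bb NSD replicate 2, and the adjusted p ran from 0.0103 to 0.455 over all alternatives. Cx3cr1, the fractalkine receptor of resident macrophages and patrolling monocytes, was at 10.55, 5.99, 8.83, 9.87 and 7.58 in the S2Ba HSD libraries, against 2.86 to 9.07 in the S2Ba NSD libraries (median 5.78). In S2Bb Cx3cr1 was at 5.905 to 8.26 in the S2Bb HSD libraries (median 7.04), against 4.404 to 8.11 in the S2Bb NSD libraries (median 6.55), and in SS at 7.72, 5.24, 5.55, 5.86 and 3.75 in the SS HSD libraries, against 4.89 to 7.33 in the SS NSD libraries (median 5.63). Groups overlapped, and the changes of 0.52 ± 0.20 (SE; adjusted p = 0.0694), 0.16 ± 0.19 (SE; adjusted p = 0.594) and -0.08 ± 0.20 (SE; adjusted p = 0.834) did not pass. Ccr2, the receptor that draws inflammatory monocytes out of the blood, was barely detected, with 79 reads over all 34 libraries and 0 reads in 9 of them. It was at 0.0811, 0.162, 0.416, 0.524 and 0.0842 in the S2Ba HSD libraries, against 0 to 0.337 in the S2Ba NSD libraries (median 0.0428). In S2Bb Ccr2 was at 0 to 0.485 in the S2Bb HSD libraries (median 0.168), against 0 to 0.247 in the S2Bb NSD libraries (median 0.185), and in SS at 0.236, 0.152, 0, 0.165 and 0 in the SS HSD libraries, against 0 to 0.8 in the SS NSD libraries (median 0.403). The groups overlapped, and at 8 reads or fewer in each library Ccr2 was too shallow to test.

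Lymphoid members were near the limit of detection apart from Cd4. Cd4 had a mean of 33.1, and was at 44.6, 22.6, 57.6, 45.9 and 32.4 in the S2Ba HSD libraries, against 25.8 to 35.3 in the S2Ba NSD libraries (median 30.6). In S2Bb Cd4 was at 27.01 to 43.8 in the S2Bb HSD libraries (median 37.8), against 24.6 to 37.6 in the S2Bb NSD libraries (median 30.5), and in SS at 32.1, 23.2, 29.1, 38.1 and 30.2 in the SS HSD libraries, against 25.8 to 36.1 in the SS NSD libraries (median 28.6). Groups overlapped, and the log2 fold changes were 0.33 ± 0.16 (SE; adjusted p = 0.176), 0.23 ± 0.16 (SE; adjusted p = 0.295) and 0.03 ± 0.16 (SE; adjusted p = 0.931). Cd3e, a chain of the T cell receptor complex, had 108 reads over all libraries, with 0 to 12 reads in each. It was at 0.974, 0, 0.0833, 0.262 and 0.0842 in the S2Ba HSD libraries, against 0.0693 to 0.57 in the S2Ba NSD libraries (median 0.182). In S2Bb Cd3e was at 0 to 0.567 in the S2Bb HSD libraries (median 0.347), against 0 to 0.593 in the S2Bb NSD libraries (median 0.204), and in SS at 0.394, 0, 0.816, 0.33 and 0.0852 in the SS HSD libraries, against 0.0888 to 0.48 in the SS NSD libraries (median 0.173), with overlap in each strain. Cd79b, a chain of the B cell receptor complex, had 35 reads in all and none in 18 libraries. Its level was 0.0811, 0, 0.0833, 0 and 0 in the S2Ba HSD libraries, against 0 to 0.253 in the S2Ba NSD libraries (median 0). In S2Bb Cd79b was at 0 to 0.162 in the S2Bb HSD libraries (median 0.0404), against 0 to 0.148 in the S2Bb NSD libraries (median 0), and in SS at 0, 0.0759, 0.0816, 0 and 0.0852 in the SS HSD libraries, against 0 to 1.201 in the SS NSD libraries (median 0.179), where SS NSD replicate 2 held 10 of the 35 reads. Cd3g had 55 reads and Nkg7, of cytotoxic granules, 93. Cd8a, the coreceptor of cytotoxic T cells, Lck, the kinase of the T cell receptor, and Cd22, a B cell lectin, had means of 0.788, 1.21 and 1.30, and their 12 changes over the 4 salt contrasts ran from -0.37 to 0.23. By limma 0 of the 4 tested lymphoid members were called in any comparison, and averaged over strains 1 of them, Cd4, had an unadjusted p under 0.05 (0.20 ± 0.09 (SE; adjusted p = 0.0913)). In the average over strains edgeR called 12 members, 11 of them myeloid (39.3% of the 28 tested myeloid members, beside 39.6% of all genes). DESeq2 called 13, of which 12 were myeloid (42.9%, beside 41.05% of all genes). Both shares were near those of all genes.

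Between strains, 1 member was called on high salt and none on normal salt. On NSD none of the 32 members was called for S2Ba over SS, where 0.267% of all genes were, or for S2Bb over SS, where 1.44% were. At an unadjusted p under 0.05 there was 1 member for S2Ba (Cd163, -0.85 ± 0.40 (SE; adjusted p = 0.318)) and none for S2Bb, and edgeR and DESeq2 called none in either comparison. F13a1 did not overlap between S2Bb NSD libraries, with 16.3 to 30.8, and SS NSD libraries, with 32.4 to 48.01, and was not called. The share of all genes whose groups did not overlap was not counted for any strain comparison, so overlap is given here as a description only. On HSD 1 member was called for S2Ba over SS, Cd14, beside 1.73% of all genes. Cd14 was at 15.7, 19.7, 24.2, 11.5 and 12.1 in the S2Ba HSD libraries, against 9.21, 9.49, 10.04, 9.66 and 12.5 in the SS HSD libraries, a log2 fold change of 0.63 ± 0.16 (SE; adjusted p = 0.0358). Only SS HSD replicate 6 reached into the S2Ba range. Without S2Ba HSD replicate 4 it was 0.49 (adjusted p = 0.139), the call was also lost without S2Ba HSD replicates 1 or 3 or SS HSD replicates 1, 2, 4 or 5, and the adjusted p ran from 0.00539 to 0.235 over all alternatives. For S2Bb over SS on HSD limma, edgeR and DESeq2 called none of the members, where limma called 0.267% of all genes, and 11 members had an unadjusted p under 0.05. Cd86 had the smallest of these, at 1.76 to 3.24 in the S2Bb HSD libraries (median 2.08), against 1.02, 0.759, 1.55, 1.57 and 0.682 in the SS HSD libraries, groups that did not overlap, with a change of 0.77 ± 0.21 (SE; adjusted p = 0.138).

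On HSD the myeloid median log2 fold change was 0.39 for S2Ba over SS, with 28 of 28 members above 0, and 0.36 for S2Bb over SS, with 27 of 28 above 0. On NSD the medians were -0.00 and -0.03. At an unadjusted p under 0.05 were 34.4% of the members for S2Ba over SS on HSD, beside 17.2% of all genes, and 34.4% for S2Bb over SS, beside 8.76%. Without S2Ba HSD replicate 4 the S2Ba median was 0.22, with 5 of 28 myeloid members at an unadjusted p under 0.05 (17.9%, beside 14.6% of all genes). Without S2Bb HSD replicate 1 the S2Bb median was 0.29, with 4 of 28 (14.3%, beside 6.10%), and without SS HSD replicate 2 it was 0.30, with 3 of 28 (10.7%, beside 7.86%). Leaving out any single library gave 5 to 20 such members for S2Ba and 3 to 20 for S2Bb. Both comparisons use the same SS HSD libraries.

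The test of the difference itself, the salt response of a congenic strain minus that of SS, called none of the 32 members for S2Ba, beside 0% of all genes, and none for S2Bb, beside 0.171% of all genes. edgeR and DESeq2 called none either. At an unadjusted p under 0.05 there were 6 members for S2Ba (18.75%, beside 9.71% of all genes) and 9 for S2Bb (28.1%, beside 12.6%), and the difference was above 0 for all of them. All of these members were myeloid. These counts depended on single libraries. For S2Ba 1 of 28 myeloid members was left without S2Ba HSD replicate 4 (3.57%, beside 8.05% of all genes), 2 without S2Ba HSD replicate 1 (7.14%, beside 9.07%) and 3 without S2Ba NSD replicates 2 or 4 or SS HSD replicate 2. For S2Bb 4 of 28 were left without S2Bb HSD replicate 1 (14.3%, beside 11.1%) or SS HSD replicate 2 (14.3%, beside 12.3%). Leaving out any single library gave 1 to 10 for S2Ba and 4 to 13 for S2Bb, and the clock components gave 2 for S2Ba (7.14%, beside 7.09%) and 1 for S2Bb (3.57%, beside 10.4%). The smallest unadjusted p belonged to Cd14 for S2Ba, with 0.81 ± 0.22 (SE; adjusted p = 0.252), and to Cd86 for S2Bb, with 0.83 ± 0.29 (SE; adjusted p = 0.217). For Cd163 the difference was 1.34 ± 0.59 (SE; adjusted p = 0.467) for S2Ba and 1.52 ± 0.58 (SE; adjusted p = 0.268) for S2Bb, for F13a1 in S2Bb 1.29 ± 0.45 (SE; adjusted p = 0.221) and for C1qa in S2Ba 0.76 ± 0.31 (SE; adjusted p = 0.448). The median difference over the 28 myeloid members was 0.41 for S2Ba, against 0.20 without S2Ba HSD replicate 4, and 0.40 for S2Bb, against 0.31 without S2Bb HSD replicate 1.

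**Figure D5:**
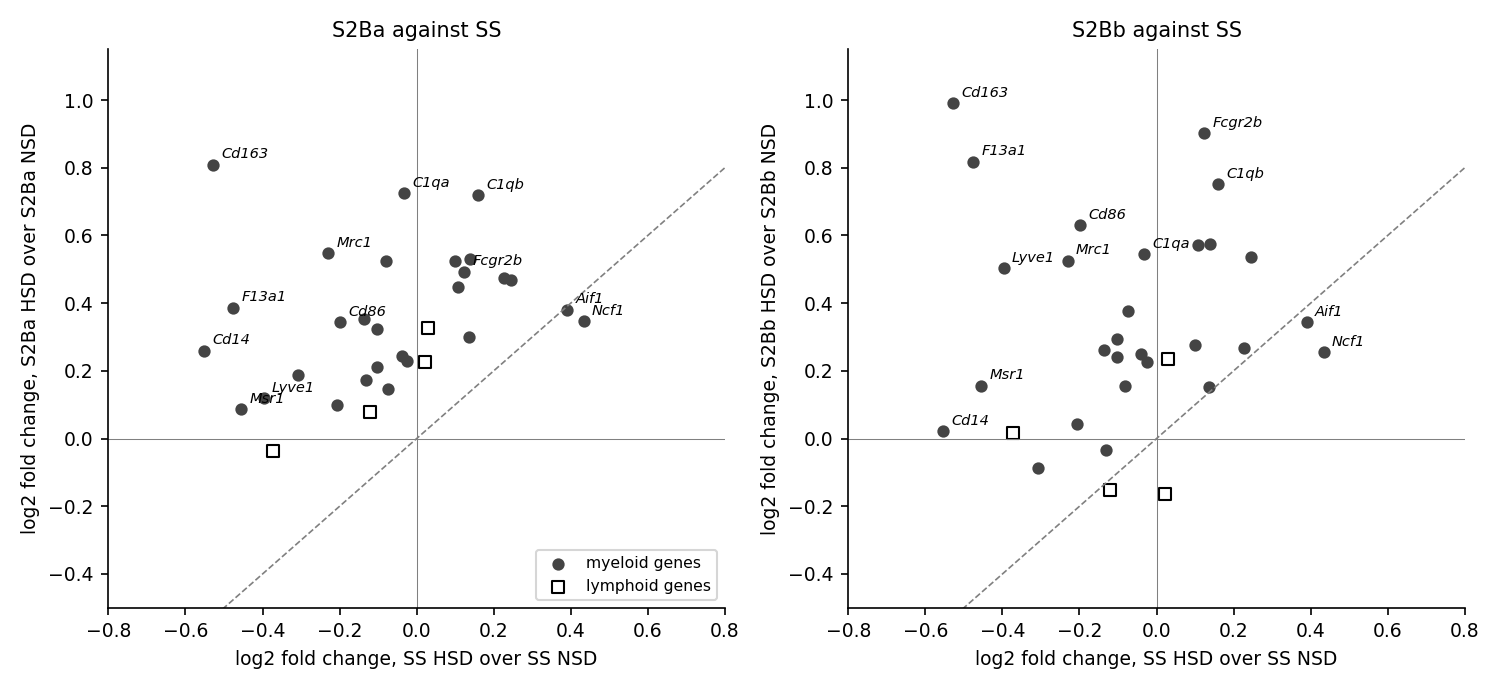
Log2 fold change, HSD over NSD, of the 32 tested members in a congenic strain (vertical axis, S2Ba left panel, S2Bb right panel) against that in SS (horizontal axis). Filled points are myeloid and open squares lymphoid members, and on the dashed line both strains respond alike. For S2Ba 30 of 32 points and for S2Bb 28 of 32 lie above the dashed line, and no single difference passed the adjusted test.

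Across the 34 libraries, deviations of log2(value + 0.5) from the group mean were compared for 9 pairs of genes, so that group differences do not enter. C1qa followed C1qb with Pearson's r = 0.93 and Spearman's rho = 0.92, and C1qc with r = 0.97 and rho = 0.97. For these both permutation p-values, shuffled within groups, were 1e-05, the smallest that 100000 resamples can give, and the adjusted p was 2.2e-05. Csf1r followed C1qa with r = 0.89 and rho = 0.84, and Cd163 followed Mrc1 with r = 0.85 and rho = 0.81 (permutation p = 1e-05 and adjusted p = 2.2e-05 for each). Ptprc followed Itgb2 with r = 0.78 and rho = 0.73 (permutation p = 3e-05 and 9e-05, adjusted 5.4e-05 and 0.00016), and Tyrobp followed Fcer1g with r = 0.72 and rho = 0.64 (permutation p = 4e-05 and 0.00026, adjusted 6e-05 and 0.00039). Leaving out the 2 libraries farthest from the median of the first gene, r was 0.91 for C1qa with C1qb, 0.96 for C1qa with C1qc, 0.85 for Csf1r with C1qa, 0.72 for Cd163 with Mrc1, 0.74 for Ptprc with Itgb2 and 0.65 for Tyrobp with Fcer1g, each with an adjusted p of 0.00097 or less by permutation. The T cell pair Cd3e and Cd3g had r = 0.31 and rho = 0.23 (permutation p = 0.12 and 0.23, adjusted 0.15 and 0.29; r = 0.32 without 2 libraries) at 0 to 12 reads per library. The relation of Csf1r to the adipocyte gene Adipoq did not pass, with r = 0.21 and rho = 0.20 (permutation p = 0.24 and 0.28, adjusted 0.27 and 0.32; r = 0.10 without 2 libraries). For Csf1r and the proliferation gene Mki67 r was 0.05 and rho -0.03 (permutation p = 0.86 and adjusted p = 0.86 for both; r = -0.02 without 2 libraries).

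Macrophage genes outside the members were read for comparison from a second list. Of its 27 tested genes 15 rose on HSD averaged over strains and 2 fell, 63.0% called beside 38.9% of all genes. Fcgr3a, an activating receptor for immunoglobulin G that signals through Fcer1g, rose by 0.99 ± 0.15 (SE; adjusted p = 6.83e-06), and it was the gene of this list that rose in SS (1.04 ± 0.27, adjusted p = 0.0173) as well as in S2Ba (1.00 ± 0.27, adjusted p = 0.0113) and S2Bb (0.92 ± 0.26, adjusted p = 0.00967). Mertk, the receptor for uptake of dying cells, rose by 0.50 ± 0.07 (adjusted p = 2.82e-06), Ctsb, a lysosomal protease, by 0.29 ± 0.06 (adjusted p = 0.000211) and Clec7a, the beta-glucan receptor, by 0.48 ± 0.10 (adjusted p = 0.000327). Of 18 genes that signal below the adaptors or belong to the oxidase, 1 rose on average, Arhgdib (0.35 ± 0.08, adjusted p = 0.000754), and 1 fell, Inpp5d, the phosphatase recruited by Fcgr2b (-0.28 ± 0.08, adjusted p = 0.00959), 11.1% called beside 38.9% of all genes. Of 11 tested growth factors and chemokines for macrophages none rose and 3 fell on average (27.3% called, beside 38.9% of all genes): Cxcl12 (-0.50 ± 0.10, adjusted p = 0.000277), Cx3cl1, the ligand of Cx3cr1 (-0.67 ± 0.15, adjusted p = 0.000709), and C3 (-0.40 ± 0.13, adjusted p = 0.013).

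Some markers of other cell types were also called with salt. Averaged over strains, where 38.9% of all genes were called, all 9 tested cell cycle genes rose (100%). Of 7 fibroblast markers 5 fell with none rising (71.4%). Of 10 adipocyte markers 4 fell with none rising (40%), and of 9 endothelial markers 1 rose and 2 fell (33.3%), shares near that of all genes. The summed cell cycle genes ran from 53.1 to 259 in S2Ba HSD libraries, against 26.003 to 70.2 in S2Ba NSD libraries, from 53.0 to 167 in S2Bb HSD libraries, against 14.03 to 41.7 in S2Bb NSD libraries, and from 60.004 to 95.4 in SS HSD libraries, against 16.7 to 45.7 in SS NSD libraries. They overlapped between diets in S2Ba and not in S2Bb or SS. For fibroblast markers the sums ran from 2804 to 5559 in S2Ba HSD libraries, against 5637 to 12304 in S2Ba NSD libraries, from 4136 to 7196 in S2Bb HSD libraries, against 6520 to 10483 in S2Bb NSD libraries, and from 5415 to 8708 in SS HSD libraries, against 7686 to 10900 in SS NSD libraries. These overlapped in S2Bb and SS and not in S2Ba. The adipocyte sums overlapped in every strain, at 73.8 to 375 in S2Ba HSD libraries, against 71.7 to 1957 in S2Ba NSD libraries, at 172 to 543 in S2Bb HSD libraries, against 159 to 660.2 in S2Bb NSD libraries, and at 124 to 339 in SS HSD libraries, against 125 to 976 in SS NSD libraries. Their part in the results for the members was not tested, other than by the adipocyte level as a covariate. With it 10 members, all myeloid, rose on average (35.71% of the myeloid members, beside 35.75% of all genes). In S2Ba 3 rose (10.7%, beside 14.8% of all genes) and in S2Bb 9 (32.1%, beside 23.1%). Of other leukocytes, neutrophil markers summed to 2.61 to 26.6 per library with 8 of 11 genes at a mean under 0.5, mast cell markers to 5.83 to 26.3, and dendritic cell markers to 32.4 to 54.8. Of 3 tested neutrophil markers 1 fell on average, Mpo (-0.95 ± 0.29, adjusted p = 0.0107), and of 3 tested mast cell markers none was called. Of 5 tested dendritic cell markers 1 fell on average, Zbtb46 (-0.27 ± 0.07, adjusted p = 0.00234). Zbtb46 also fell in S2Ba (-0.43 ± 0.12, adjusted p = 0.0137). Cd1d1 was higher in S2Bb than in SS on HSD (0.73 ± 0.15, adjusted p = 0.0219). Among 4 tested T and NK genes outside the members 1 rose on average, Thy1 (0.97 ± 0.15, adjusted p = 7.45e-06), which fibroblasts also express, and the 1 tested B cell gene, Blk, fell (-1.04 ± 0.15, adjusted p = 2.33e-06). Of 18 tested clock genes 8 rose and 5 fell on average, and with the first 2 principal components of the clock genes in the model 2 members were called on average (Fcgr2b and Tyrobp), none in S2Ba, 1 in S2Bb (Fcgr2b) and none in SS, while 3474 of all genes were called on average with these components and 5242 without them.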

How the data were processed

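Total RNA of rat aorta was sequenced, and 34 of the 36 labelled samples had a column in the table used here. SS HSD replicate 3 and S2Ba HSD replicate 2 were not analysed here. The deposited values are a signal that, by its fixed step per library, is read counts per gene divided by a size factor; no label states this step. Whole reads were recovered from them for 100% of values in every library at a tolerance of 0.01 read, 1 read being worth 0.0659 to 0.12. The tools listed, with no roles, per the submitters' processing notes were STAR 2.3.1, edgeR 3.6.8, R 3.2.3, bcl2fastq 1.8.4 and FastQC. Which genome build, annotation, counter and strand setting were applied is not given in the sources used here.

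Values were tested as log2(value + 0.5) with limma 3.58.1 (R 4.3.3), with a mean for each of the 6 groups, a shared spread with a trend, 2-sided tests and Benjamini-Hochberg adjustment over 13475 genes with a mean of at least 0.5. The other 12631 genes were not tested. Calls were made at an adjusted p under 0.05 in 10 contrasts. On the recovered reads edgeR 4.0.16 (quasi-likelihood test) called 2187 genes for salt in S2Ba and 3046 in S2Bb, beside 2042 and 2974 with limma, and DESeq2 1.42.0 called 2527 and 3314. Other pseudocounts, filters, scalings, covariates, fits on fewer groups and leaving out each library were also run. The method was tested on simulated data.

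The replicate number of a library only follows record order and does not pair libraries. Library depth was 8753735 to 15168833 reads, which limits genes with a few reads, and ranges over libraries include counting error. Members and gene lists were chosen with earlier results of these data known. Values per library are given for members called in any contrast and for 15 members of known roles, and other members are given by fold change or count. From the other lists, up to 4 called genes with the smallest adjusted p were named. Promoter sequences are RefSeq's on GRCr8, matched by symbol.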

Additional observations from a re-analysis of the deposited data

Results flagged for a closer look

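Within groups of 5 or 6 libraries, 18 of 192 combinations of a member and a group (9.38%) held a library far from the others by Dixon's test. Its nominal rate of about 1 in 20 holds for independent, normally distributed values. The members share libraries and the test used scaled counts without logs, so the share of 9.38% is no measure of an excess over chance. In S2Ba HSD replicate 4 the values of C1qb (76.8), Cd163 (66.4) and Lyve1 (51.6) lay far above the other S2Ba HSD libraries, whose highest were 39.6, 26.6 and 19.6. In S2Bb HSD replicate 1 the values of Cd163 (122) and Mrc1 (227) and the summed myeloid level (1640) lay far above the other S2Bb HSD libraries, whose highest were 49.6, 106 and 1003.5. SS HSD replicate 5 was high for Cd163 (25.9, next 15.3) and Lyve1 (27.7, next 14.9), and SS HSD replicate 6 for Cd14 (12.5, next 10.04).

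S2Bb NSD replicate 2 was far below the other S2Bb NSD libraries for C1qa (20.5, next 29.7), C1qb (16.3, next 22.3), Csf1r (66.8, next 95.6) and Cybb (45.0, next 55.4), and above them for Cd14 (15.7, next 13.7). S2Bb NSD replicate 3 was high for Cd163 (18.6, next 14.4) and Cd8a (1.98, next 0.806). S2Ba NSD replicate 1 was low for Fcer1g (3.79, next 6.27). SS NSD replicate 3 was high for Tyrobp (12.4, next 8.74) and SS NSD replicate 4 for Ptprc (36.1, next 27.7).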

How the results depend on the processing

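Counts of members called moved by over 1.5 times in these alternatives. For salt in S2Ba (3 members), 0 were called with the clock components, beside 14.8% of all genes. Without S2Ba HSD replicate 4 and S2Bb HSD replicate 1 together 0 were called, beside 13.4%. With no filter on low values 0 were called, beside 1535 of 26106 genes, and with only the groups of the contrast 0, beside 1093 of 13475. DESeq2 called 5, beside 18.8% of all genes, and leaving out 1 library gave 0 to 6, beside 1506 to 2408 of all genes. For salt in S2Bb (5 members, beside 2974 of 13475 genes), the clock components gave 1, beside 1418 of 13475 genes. The adipocyte level gave 9, beside 23.1% of all genes, edgeR 9, beside 22.6%, and DESeq2 11, beside 24.6%. Only the groups of the contrast gave 8, beside 3123 of 13475 genes. Leaving out 1 library gave 1 to 9, beside 2414 to 3023 of all genes. For salt in SS (1 member), the adipocyte level gave 0, beside 4.73% of all genes, and the clock components 0, beside 3.755%. Only the groups of the contrast gave 2, and leaving out 1 library gave 0 to 1, beside 519 to 1708 of all genes. For the average over strains (10 members), the clock components gave 2, beside 25.8% of all genes. Leaving out 1 library gave 9 to 12, beside 4928 to 5444 of all genes. For S2Ba over SS on HSD (1 member), DESeq2 called 3, beside 3.74% of all genes. The clock components gave 0, beside 0.119%, and leaving out both libraries together 0, beside 1.46%. No filter and only the groups of the contrast also gave 0. Leaving out 1 library gave 0 to 1, beside 47 to 448 of all genes. The cause was not tested. The correlation of Csf1r with Mki67 changed sign, at r = 0.05, rho = -0.034 and r = -0.02 without 2 libraries.

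Over the alternatives other than leaving out 1 library, the counts of all genes called ran from 1093 to 2527 for salt in S2Ba (2042 as reported), 1418 to 3314 in S2Bb (2974), 506 to 1395 in SS (1129) and 3474 to 5530 for the average (5242). For strains they ran from 6 to 156 for S2Ba over SS on NSD (36), 67 to 366 for S2Bb over SS on NSD (194), 16 to 494 for S2Ba over SS on HSD (233) and 17 to 70 for S2Bb over SS on HSD (36). For the differences in salt response they ran from 0 to 10 for S2Ba (0) and 0 to 124 for S2Bb (23). No paired analysis was possible because the replicate numbers come from record order alone. Depth limits Ccr2 and the lymphoid members other than Cd4.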
